A study of Homo sapiens with 4 samples.

Results

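ERK, the last kinase of the RAS-RAF-MEK-ERK cascade, switches on genes whose products then switch the cascade off. The 10 genes described here belong to that negative feedback: the phosphatases DUSP1, DUSP4, DUSP5, DUSP6, DUSP7 and DUSP10, the Sprouty genes SPRY2 and SPRY4, and the Sprouty-related genes SPRED1 and SPRED2. They were chosen by name, with earlier results of these data known, and all 10 were found among the 62710 Ensembl genes of the table. DUSP proteins of this family take phosphate off the threonine and tyrosine that activate a MAP kinase. DUSP6 and DUSP7 act on ERK in the cytoplasm, DUSP4 and DUSP5 in the nucleus, DUSP1 also on p38 and JNK, and DUSP10 mainly on p38 and JNK. Sprouty proteins act upstream, between growth factor receptors and RAF, and SPRED proteins bring the RAS inhibitor neurofibromin (NF1) to the membrane. Because ERK itself drives several of these genes, above all DUSP6 and SPRY4, their messenger RNA is often read as a gauge of ERK output.

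Messenger RNA was measured in 4 libraries from 2 human lines of gastric cancer, HGC27 and MKN45. Each line had 1 library after 24 h in 0.3 µM periplocymarin, a plant cardiac glycoside that blocks the Na,K-ATPase, and 1 after 0.1% DMSO, the vehicle. The question was how the glycoside bears on gene expression in each line. HGC27 is of undifferentiated origin, and MKN45, a poorly differentiated adenocarcinoma line, carries an amplified MET receptor gene. Levels are FPKM, reads scaled to gene length and library size, and libraries held 24852041 to 36505404 reads recovered from those values. The epithelial markers EPCAM, CDH1, KRT8, KRT18 and KRT19 summed to 1598 and 2864 FPKM in vehicle and treated MKN45, and to 0.580 and 0.399 FPKM in HGC27. The mesenchymal markers VIM, CDH2, ZEB1, FN1 and COL3A1 summed to 572 and 748 FPKM in HGC27, and to 0.658 and 0.506 FPKM in MKN45. HGC27 therefore lacked the epithelial markers in these libraries, and CDH2 was at or near 0 in both lines. The endothelial markers PECAM1, CDH5 and VWF summed to at most 0.0245 FPKM in any library. Of the globin genes HBB was at 0 in all 4 libraries, and HBA1 stood at 5.98 and 10.5 FPKM in vehicle and treated HGC27 and at 0 in MKN45.

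Since each line and treatment had 1 library, treated and vehicle cells of a line are compared by their values alone, with no replicates and no test. An interval printed beside a ratio is a 95% Clopper-Pearson interval from the recovered reads and covers counting error only. The test over both lines (limma) treats the 2 lines as the 2 units of each arm. A gene's own error in it is the difference in response between the lines, with 1 residual degree of freedom. That error is drawn toward the spread of all genes tested, with 8.59 prior degrees of freedom. Its p-values thus rest mostly on spread borrowed from other genes of these 4 libraries, which may be technical. Only of genes that passed it is it said that they rose or fell.

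The promoters of the members that the results turn on are shown first. They are RefSeq windows of 300 bases (GRCh38.p14), from 250 bases before to 50 after a RefSeq start, and 8 of the 10 genes had 12 such windows in all. Capitals mark the matches to the motifs searched on both strands, other than the GC box. DUSP1 is shown because it was the member nearest to the threshold over both lines, DUSP6 because its level in MKN45 differed most downward, and SPRY4 because it was close to silent in HGC27. They lie on the minus strand at chr5:172771146-172771445 (DUSP1), chr12:89352452-89352751 (DUSP6) and chr5:142324198-142324497 (SPRY4). The DUSP6 and SPRY4 windows lie wholly inside the genes as annotated in GENCODE 29, so the outer starts of those annotations were not searched.
DUSP1: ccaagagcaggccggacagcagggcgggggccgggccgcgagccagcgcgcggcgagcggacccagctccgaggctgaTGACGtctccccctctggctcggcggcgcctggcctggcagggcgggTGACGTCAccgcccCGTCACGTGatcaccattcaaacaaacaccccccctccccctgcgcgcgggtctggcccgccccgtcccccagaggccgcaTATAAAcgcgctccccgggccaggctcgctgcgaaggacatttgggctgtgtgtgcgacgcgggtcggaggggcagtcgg
DUSP6: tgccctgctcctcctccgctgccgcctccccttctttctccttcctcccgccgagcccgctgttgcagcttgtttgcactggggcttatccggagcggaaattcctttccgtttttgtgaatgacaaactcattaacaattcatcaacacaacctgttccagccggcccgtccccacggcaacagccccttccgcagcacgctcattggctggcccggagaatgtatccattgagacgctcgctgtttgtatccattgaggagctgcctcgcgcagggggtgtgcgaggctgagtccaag
SPRY4: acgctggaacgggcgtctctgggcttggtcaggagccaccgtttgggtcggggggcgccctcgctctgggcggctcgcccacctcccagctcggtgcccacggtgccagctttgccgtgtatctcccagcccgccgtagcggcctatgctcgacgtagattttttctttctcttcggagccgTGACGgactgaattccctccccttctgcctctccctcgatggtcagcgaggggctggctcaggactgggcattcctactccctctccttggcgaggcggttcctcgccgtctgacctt

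The DUSP1 window held the cyclic AMP response element TGACGTCA at offset -125 from the start, a palindrome, which 1.85% of all 35116 windows held. It also held the E-box CACGTG (7.26% of windows) at -108 and the TATA box TATAAA (11.5%) at -30, the only member window with a CACGTG match. The shorter element TGACG, which lies inside TGACGTCA, was in 5 of the 12 member windows, SPRY4's among them, against 24.6% of all windows. The DUSP6 window held no match to any of the 9 motifs. No member window held the ETS letters CCGGAAG (10.3% of all windows), the Capicua octamer TGAATGAA (1.65%) or the serum response factor's CArG box (1.29%). The AP-1 letters TGANTCA (7.71%) were in 1 of the SPRED2 windows, which lies inside the annotated gene, and the GC box GGGCGG (45.0%) was in 9 of the 12. A match is a description of the letters in these windows and not of binding.

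The largest contrast among these genes was between the lines. DUSP4, DUSP5, DUSP6 and SPRY4 were each below 0.3 FPKM in both HGC27 libraries and at 8.12 FPKM or more in both MKN45 libraries. DUSP6 stood at 0.137 and 0.253 FPKM in vehicle and treated HGC27 (17 and 23 reads), and at 55.0 and 27.3 FPKM in vehicle and treated MKN45 (7818 and 2510 reads). In vehicle, MKN45 thus held 403 times the DUSP6 level of HGC27 (interval 251 to 691). DUSP4 was at 0.0554 and 0.269 FPKM in HGC27, against 19.2 and 27.3 FPKM in MKN45, 347 times higher in vehicle MKN45 (203 to 653). SPRY4 was at 0.0520 and 0.0583 FPKM in HGC27 (11 and 9 reads) and at 10.1 and 10.6 FPKM in MKN45, 193 times higher in vehicle (108 to 388). No MKN45 value of these 3 genes came near an HGC27 value.

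DUSP5 had no read in either HGC27 library. At a floor of 3 reads per library that allows up to 0.0367 FPKM in vehicle and 0.0502 FPKM in treated HGC27. In MKN45 it stood at 8.12 and 24.0 FPKM (759 and 1450 reads), at least 221-fold higher in vehicle and at least 477-fold higher in treated cells. DUSP2, another nuclear phosphatase of the family outside the 10, was likewise at 0 reads in both HGC27 libraries, and at 1.5 and 3.89 FPKM in MKN45.

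The other members were present in both lines. SPRY2 was at 3.99 and 3.22 FPKM in vehicle and treated HGC27 and at 13.49 and 13.53 FPKM in MKN45. SPRED2 was at 8.65 and 7.16 FPKM in HGC27, against 21.05 and 19.3 FPKM in MKN45. SPRED1 was at 4.48 and 4.63 FPKM in HGC27, against 10.6 and 14.5 FPKM in MKN45. For all 3, both MKN45 values lay above both HGC27 values, by 2.38 to 3.38 times in vehicle. DUSP7 was nearer, at 3.81 and 3.24 FPKM in HGC27, against 6.09 and 5.37 FPKM in MKN45. DUSP10 was low in all 4 libraries, at 0.526 and 0.375 FPKM in HGC27, against 0.806 and 0.608 FPKM in MKN45. DUSP1 was the 1 member with more in vehicle HGC27 than in vehicle MKN45, at 4.07 against 1.87 FPKM.

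A test of the line difference was added after these values were seen: the line term of the limma fit, in which vehicle and treated libraries are the 2 units of each line. Of the 9 members tested, 7 were lower in HGC27 and none higher, but DUSP4, DUSP5, DUSP6 and SPRY4 passed the minimum level of the test only through MKN45. Their direction was fixed by that minimum, here and in the comparisons of single libraries that follow, so these counts are a description and support nothing. Among all 12374 genes tested, 19.6% were lower in HGC27 and 16.4% higher, 36.0% in all. By a difference of at least 1 on the log2(FPKM + 1) scale between the vehicle libraries, which has no test, 7 of 9 members measured were lower in HGC27 and none higher, where 17.4% of 13031 genes were lower and 14.3% higher (31.6% in all). Between the treated libraries, a comparison also added later, 7 were lower and none higher, where 19.1% of 11681 genes were lower and 16.5% higher (35.6% in all). On the log2(FPKM + 1) scale the HGC27 minus MKN45 difference was -5.06 ± 0.34 for DUSP6 (moderated SE), -4.37 ± 0.29 for DUSP4 and -3.92 ± 0.38 for DUSP5. It was -3.42 ± 0.30 for SPRY4, -1.66 ± 0.28 for SPRY2, -1.28 ± 0.29 for SPRED1 and -1.25 ± 0.28 for SPRED2, the 3 genes that were called and stood above 1 FPKM in every library (limma adjusted p = 0.00155, 0.00694 and 0.00652). DUSP7 and DUSP1 did not pass, at -0.57 ± 0.29 and 0.55 ± 0.30 (limma adjusted p = 0.150 and 0.189). Each line is a single line, so such a difference belongs to these 2 lines.

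**Figure D1:**
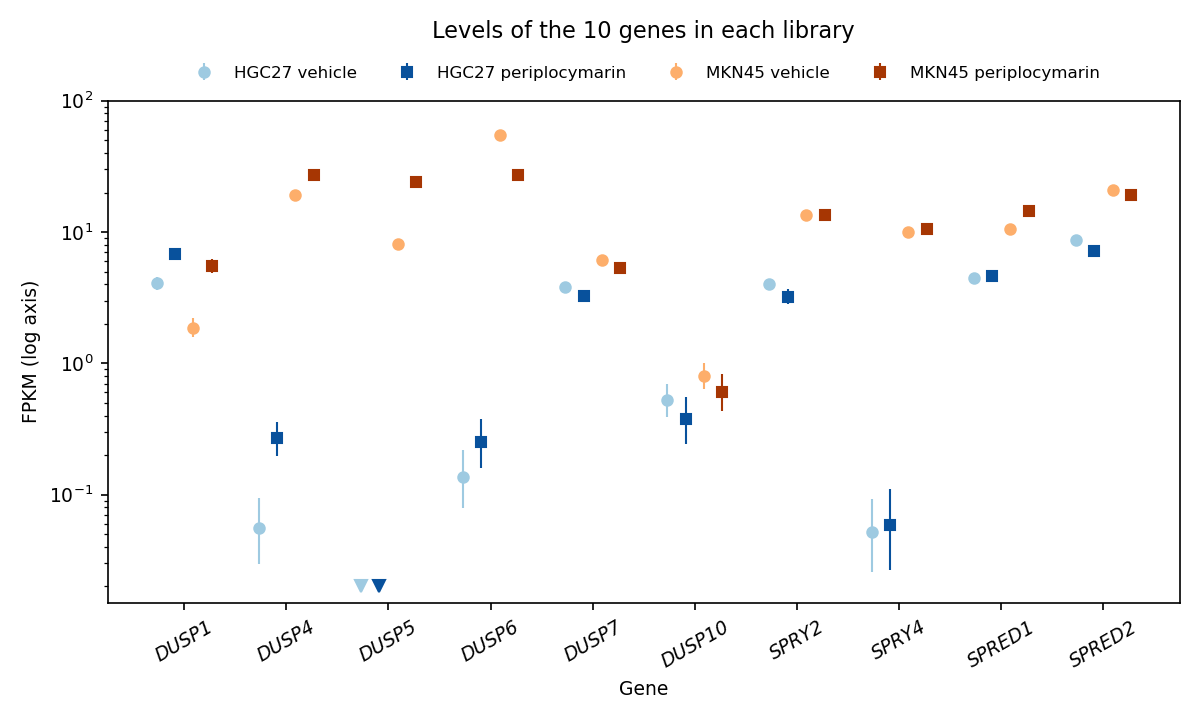
FPKM on a log axis for the 10 genes in each of the 4 libraries, with 95% exact Poisson counting intervals as bars, and downward triangles for DUSP5, which had no read in HGC27. DUSP4, DUSP5, DUSP6 and SPRY4 stand below 0.3 FPKM in HGC27, against 8.12 FPKM or more in MKN45.

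After periplocymarin none of the 9 members tested over both lines rose or fell (limma, adjusted p under 0.05), where 6.78% of all genes tested were called, 3.49% higher and 3.29% lower. At an unadjusted p under 0.05 there was 1 member, DUSP1, against 28.4% of all genes, and limma-voom on recovered reads also called none and had 2 under an unadjusted 0.05, DUSP1 and DUSP5. DUSP1 had a fitted difference of 0.90 ± 0.30 and was higher in the treated library of both lines (limma adjusted p = 0.0911). The others lay between -0.42 ± 0.34 for DUSP6 and 0.73 ± 0.38 for DUSP5 (limma adjusted p = 0.434 and 0.234). The median fitted difference of the 9 was 0.04, against 0.06 over all genes tested. DUSP10 was under the minimum level of the test, a mean of 1 FPKM. DUSP4, DUSP5, DUSP6 and SPRY4, close to silent in HGC27, could show little difference there on the log2(FPKM + 1) scale. A difference in MKN45 alone also widens the error of this fit. For these genes the lack of a call was thus largely set in advance and says little.

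DUSP1 encodes an immediate early phosphatase that stress and growth factors induce. Its level was 4.07 FPKM in vehicle and 6.83 FPKM in treated HGC27 (264 and 324 reads) and 1.87 and 5.48 FPKM in MKN45 (139 and 263 reads). The treated to vehicle ratio was 1.68 (1.42 to 1.99) in HGC27 and 2.92 (2.37 to 3.62) in MKN45. On the deposited scale both treated libraries thus lay above both vehicle libraries. With libraries scaled to their totals alone the ratio within each line stayed above 1, at 1.32 and 2.50. On that scale, however, treated MKN45 lay below vehicle HGC27.

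DUSP5 and DUSP6, the nuclear and the cytoplasmic ERK phosphatase, went opposite ways in MKN45. DUSP5 went from 8.12 to 24.0 FPKM, a ratio of 2.95 (2.70 to 3.23). DUSP6 went from 55.0 to 27.3 FPKM, 2.02-fold lower (1.93 to 2.11), or 2.36-fold lower with library totals alone. DUSP4, which is also nuclear, went from 19.2 to 27.3 FPKM, a ratio of 1.42 (1.37 to 1.48). DUSP6, the highest of the 10 in vehicle MKN45, was level with DUSP4 in the treated library, where their counting intervals overlapped. An antisense gene overlaps DUSP6, and it had 57 reads in vehicle MKN45 and none in the other libraries. No strand setting is stated, so reads of the overlap cannot be told apart, but 57 stand beside 7818 for DUSP6.

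In HGC27 the DUSP4 reads went from 13 to 46, a ratio of 4.85 (2.57 to 9.78) that left its level at 0.269 FPKM. DUSP6 went from 17 to 23 reads, a ratio of 1.85 (0.948 to 3.70), an interval that holds 1. SPRY4 had 11 and 9 reads, a ratio of 1.12 (0.410 to 2.97), so no difference was detectable at this depth.

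The remaining members differed by less than 1.5 times between treated and vehicle cells on the deposited scale. With library totals alone, DUSP10, SPRY2 and SPRED2 in HGC27 were 1.78-fold, 1.57-fold and 1.54-fold lower, and DUSP10 in MKN45 was 1.55-fold lower. DUSP7 had ratios of 0.851 (0.753 to 0.961) in HGC27 and 0.882 (0.804 to 0.967) in MKN45. SPRED2 had 0.828 (0.762 to 0.898) and 0.916 (0.872 to 0.963). Both were lower in the treated library of both lines. SPRY2 was at 0.807 (0.686 to 0.948) in HGC27 and at 1.004 (0.927 to 1.09) in MKN45. SPRY4 in MKN45 was at 1.05 (0.990 to 1.12). SPRED1 had 1.03 (0.945 to 1.13) in HGC27 and 1.37 (1.30 to 1.44) in MKN45. Library totals alone turned SPRY2 and SPRY4 in MKN45 to 0.858 and 0.901 and SPRED1 in HGC27 to 0.814, and SPRY4 in HGC27 to 0.882, while SPRED1 in MKN45 stayed above 1 at 1.17. With mitochondrial genes left out SPRY2 and SPRY4 in MKN45 and SPRED1 in HGC27 were likewise just under 1, at 0.940, 0.988 and 0.997. DUSP10 had 0.713 (0.422 to 1.18) and 0.754 (0.506 to 1.11), from 25 to 84 reads per library, so neither difference was detectable.

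**Figure D2:**
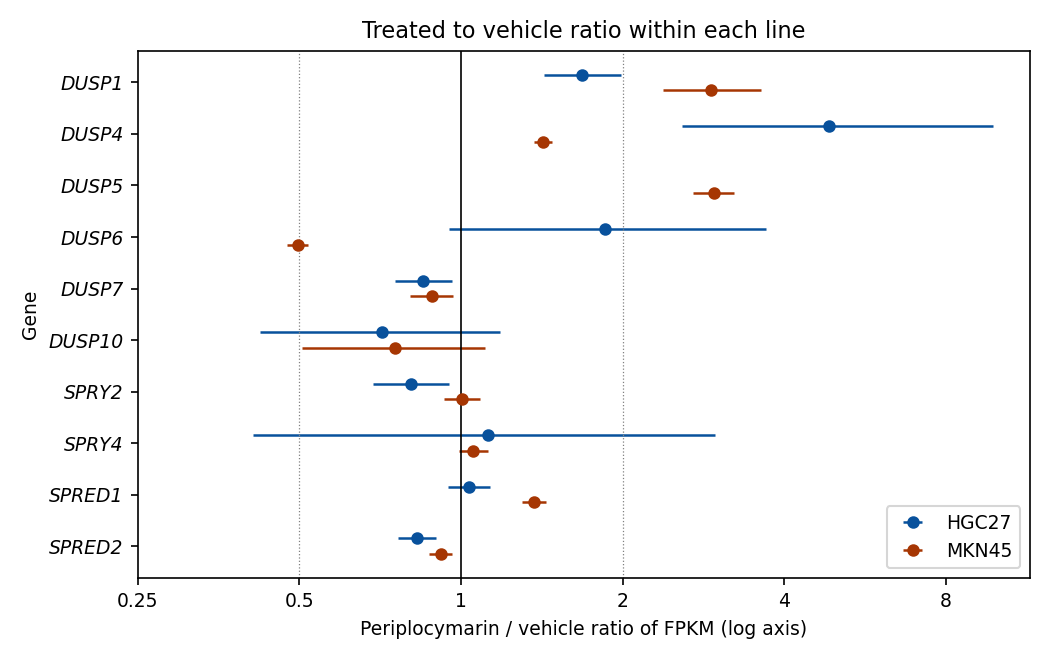
Treated to vehicle ratio of FPKM on a log axis for each gene in HGC27 and MKN45, with 95% Clopper-Pearson counting intervals as bars and dotted lines at 2-fold. DUSP1 lies above 1 in both lines, DUSP5 at 2.95 and DUSP6 at 0.496 in MKN45, and DUSP5 has no ratio in HGC27.

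Against all genes measured in a line (those whose 2 libraries average 1 FPKM or more), a difference of at least 1 on the log2(FPKM + 1) scale was taken as past 2-fold. In HGC27 none of the 5 members measured passed it in either direction, while 9.72% of 11821 genes were higher and 10.4% lower (20.1% in all). In MKN45 DUSP1 and DUSP5 of the 9 measured were higher, by 1.17 and 1.45, and none was lower, while 8.21% of 11895 genes were higher and 8.94% lower (17.2% in all). DUSP6 lay just short of the threshold, at -0.98. Of all genes measured in MKN45, 97.8% had a lower difference than DUSP5, 94.8% than DUSP1 and 9.23% than DUSP6. In HGC27 77.2% had a lower difference than DUSP1, and the other 4 members lay between 33.0% and 46.5%. The median over the members measured was -0.18 in HGC27 and 0.07 in MKN45, beside 0.11 and 0.07 over all genes.

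**Figure D3:**
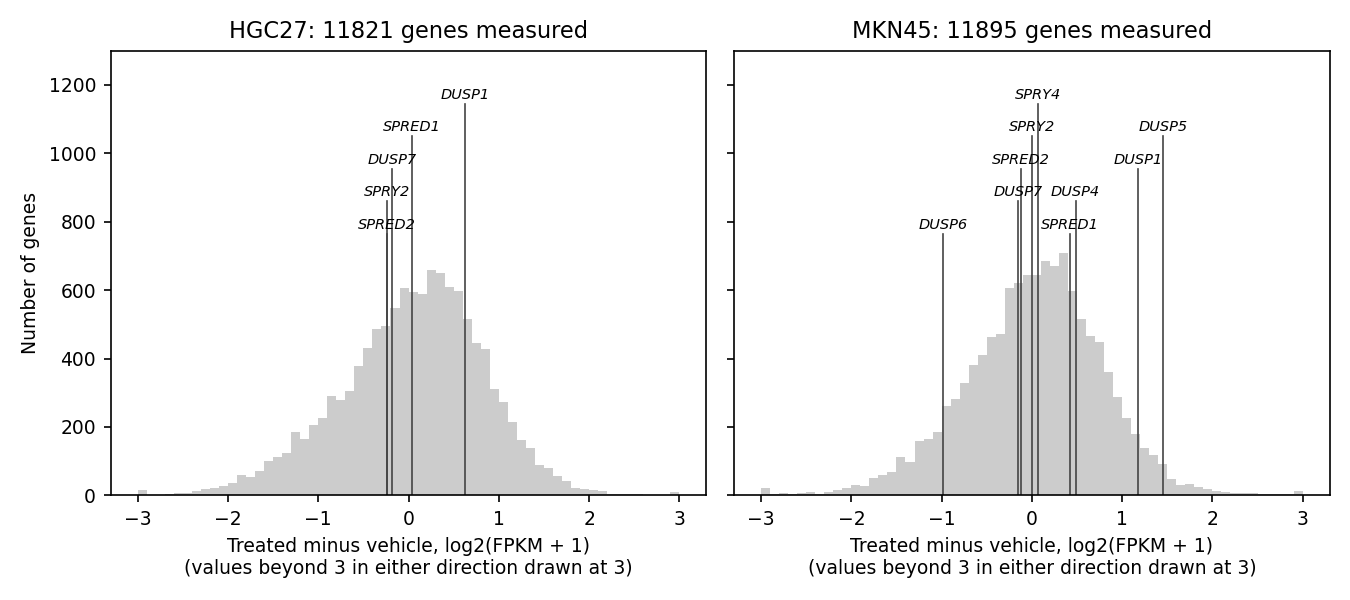
Number of genes at each treated minus vehicle difference of log2(FPKM + 1) in HGC27 and MKN45, with vertical lines at the members measured. In MKN45 DUSP5 (1.45) and DUSP1 (1.17) lie in the upper tail and DUSP6 (-0.98) in the lower, and in HGC27 the 5 members lie within the bulk of the genes.

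On the deposited scale the summed level of the 10 genes hardly differed with treatment, at 25.8 and 26.04 FPKM in vehicle and treated HGC27 and at 146 and 148 FPKM in MKN45. With library totals alone the treated sum was lower than the vehicle sum in both lines. Within MKN45 the make-up of the sum differed, since DUSP6 made up 37.6% of it in vehicle and 18.4% after treatment. The 6 phosphatases summed to 91.1 and 90.1 FPKM in MKN45 and to 8.59 and 11.0 FPKM in HGC27. The 4 Sprouty and SPRED genes summed to 55.2 and 58.0 FPKM in MKN45 and to 17.2 and 15.1 FPKM in HGC27.

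By level, vehicle HGC27 was led by SPRED2 (8.65 FPKM), and SPRED1, DUSP1, SPRY2 and DUSP7 followed with overlapping counting intervals between neighbours, from 4.48 down to 3.81 FPKM. After treatment DUSP1 reached the level of SPRED2 within counting error. Vehicle MKN45 ran from DUSP6 through SPRED2, DUSP4, SPRY2, SPRED1, SPRY4, DUSP5, DUSP7 and DUSP1 to DUSP10, and SPRED1 and SPRY4 were the only neighbours whose intervals overlapped. In treated MKN45 DUSP5 came next after DUSP4 and DUSP6, and DUSP1 was level with DUSP7.

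Among relatives outside the 10, none passed the test over both lines (limma): 3 of 4 other MAP kinase phosphatases, 6 of 12 atypical dual-specificity phosphatases and 1 of 3 other Sprouty and SPRED genes could be tested, with 1, 1 and 0 at an unadjusted p under 0.05. Of all genes tested, 28.4% were under that unadjusted p. DUSP9, a cytoplasmic ERK phosphatase, went from 4.68 to 0.813 FPKM in HGC27 cells and from 0.754 to 0.121 FPKM in MKN45, a fitted difference of -1.15 ± 0.36 (limma adjusted p = 0.0759). That call depended on the setting: DUSP9 passed as lower with a pseudocount of 0.1 (-2.17, limma adjusted p = 0.0292), library totals (-1.29, 0.0439), mitochondrial genes left out (-1.21, 0.0156) and limma-voom (-2.53, 0.0316). SPRY1, a Sprouty gene, was at 3.01 and 2.47 FPKM in HGC27, against 27.0 and 14.7 FPKM in MKN45, where it was 1.84-fold lower (1.73 to 1.95), with a fitted difference of -0.52 ± 0.30 (limma adjusted p = 0.279). Of the atypical phosphatases tested, DUSP23 had a fitted difference of -0.75 ± 0.31 and DUSP22 of -0.53 ± 0.30. Of those under the minimum level, DUSP18, DUSP19 and DUSP28 were lower in the treated library of both lines. DUSP19 went from 0.559 to 0.0789 FPKM in HGC27 (97 and 10 reads) and from 0.958 to 0.0780 FPKM in MKN45 (190 and 10 reads). DUSP15, DUSP21 and DUSP26 were at 0.183 FPKM or less in every library.

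The cascade that these genes restrain was examined next. Of 22 RAS-ERK cascade genes 20 were tested and none passed (limma, 6 at an unadjusted p under 0.05), with 15 of 20 fitted above 0 and a median of 0.48, against 0.06 over all genes. Within HGC27 6 of the 19 measured were past 2-fold higher and none lower, beside 9.72% and 10.4% of all genes. Within MKN45 none of the 21 measured was higher and 1 was lower, beside 8.21% and 8.94%. Their medians were 0.53 in HGC27 and 0.34 in MKN45, beside 0.11 and 0.07 over all genes. RPS6KA2, under the minimum level of the test, had 186 and 32 reads in vehicle and treated HGC27. In vehicle and treated MKN45 RPS6KA2 had 653 and 31. The adaptor GRB2 went from 18.4 to 46.8 FPKM in HGC27 cells and from 32.4 to 58.5 FPKM in MKN45, a fitted difference of 1.07 ± 0.28 (limma adjusted p = 0.0519). MAP2K1, which encodes MEK1, went from 5.16 to 12.3 FPKM and from 11.3 to 22.0 FPKM, with 1.01 ± 0.28 (limma adjusted p = 0.0594). Under other settings cascade genes did pass as higher, 5 with mitochondrial genes left out (GRB2 and MAP2K1 among them, limma adjusted p = 0.0177 and 0.0256) and 4 each with a pseudocount of 0.1, a floor of 10 FPKM, robust moderation and limma-voom. Over all genes tested, 963 of 12543 were higher with mitochondrial genes left out, and 1049 of 4454 at the floor of 10 FPKM. Of 12374 tested, 755 were higher with the smaller pseudocount, 756 with robust moderation and 856 with limma-voom. Of 15 RAS inhibitors and other brakes 14 were tested, and PEA15, a protein that holds ERK in the cytoplasm, rose by 1.16 ± 0.28 (limma adjusted p = 0.0414). The PEA15 level moved from 33.4 to 67.0 FPKM in HGC27 cells and from 21.5 to 55.7 FPKM in MKN45. CBLB, a ubiquitin ligase, had -0.82 ± 0.31 and did not pass. With quantile normalization PEA15 did not pass either (0.68, limma adjusted p = 0.150).

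Of 15 genes of the p38 and JNK cascades, whose kinases DUSP1 and DUSP10 dephosphorylate, 13 were tested and 1 rose. That was MAP2K3, the p38 kinase kinase MKK3, by 1.23 ± 0.31 (limma adjusted p = 0.0473), with levels that went from 2.68 to 5.41 FPKM in HGC27 cells and from 30.1 to 97.8 FPKM in MKN45. MAPK11, the beta form of p38, had -0.97 ± 0.37 and did not pass. MAP2K6, also of this list, had a mean of 0.83 FPKM, under the minimum level, so its difference was not tested. Vehicle and treated HGC27 held 1010 and 11 of its reads (1.88 and 0.0280 FPKM). Vehicle and treated MKN45 held 836 and 20 (1.36 and 0.0503 FPKM). MAP2K6 was thus lower in the treated library of both lines, opposite to MAP2K3. None of 9 ETS factors and Capicua partners passed (limma), with 3 at an unadjusted p under 0.05, against 28.4% of all genes. ELK1 had 0.87 ± 0.32 and ELK3 -0.82 ± 0.35. Under other settings 1 ETS or Capicua gene was higher (a floor of 10 FPKM) and 1 lower (library totals), and limma-voom called 1 brake and 1 p38 or JNK gene lower. Over all genes tested, 1049 of 4454 were higher at that floor, and 1109 of 12459 lower with library totals. Limma-voom called 669 of 12374 lower.

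Genes known to be switched on by ERK were measured beside the feedback genes. Of 19 such genes 17 were tested over both lines, and PHLDA2 rose by 1.54 ± 0.30 (limma adjusted p = 0.0260), with levels that went from 1.62 to 5.21 FPKM in HGC27 cells and from 3.92 to 16.4 FPKM in MKN45. No other gene of the list passed, and the list's median was 0.18, but the number higher was 5 with mitochondrial genes left out, 7 with limma-voom, 2 with a pseudocount of 0.1, a floor of 10 FPKM or robust moderation, and 0 with no filter or no block, and 1 was lower with library totals. Over all genes tested, 963 of 12543 were higher with mitochondrial genes left out, 856 of 12374 with limma-voom and 1049 of 4454 at that floor. With library totals 1109 of 12459 were lower. The EGFR ligand AREG had 1.48 ± 0.59 (limma adjusted p = 0.139, and 0.00458 with mitochondrial genes left out), its level going from 2.59 to 29.1 FPKM in MKN45 and at 0.0755 and 0 FPKM in HGC27. Within MKN45 8 of the 17 measured genes were past 2-fold higher and none lower on the log2(FPKM + 1) scale, where ETV4 lay just short of lower. Their median was 0.81, beside 8.21% higher, 8.94% lower and a median of 0.07 over all genes. Within HGC27 1 of the 8 measured was higher and 1 lower, with a median of -0.08, beside 9.72%, 10.4% and 0.11 over all genes.

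The following 5 were chosen after their values were seen. ETV4, an ETS factor, went from 33.2 to 16.4 FPKM in MKN45, 2.02-fold lower (1.90 to 2.15), and was at 0.0882 and 0.205 FPKM in HGC27. Its relative ETV5 went from 37.9 to 20.9 FPKM in MKN45, 1.82-fold lower (1.74 to 1.90), and from 5.12 to 3.07 FPKM in HGC27. FOSL1, an AP-1 subunit, went from 14.8 to 47.7 FPKM in MKN45, a ratio of 3.22 (2.99 to 3.47). EGR1, a zinc finger factor, went from 5.92 to 16.6 FPKM, a ratio of 2.80 (2.55 to 3.08). PHLDA1 stood at 53.0 and 53.4 FPKM. Among the genes named here, DUSP6, SPRY1, ETV4 and ETV5 thus differed downward in treated MKN45 and DUSP5, FOSL1 and EGR1 upward. None of these 7 passed the test over both lines (limma). That says little for DUSP5, DUSP6, ETV4 and FOSL1, which were close to silent in HGC27 and could show little difference there. The named genes do not give the balance of the ERK output list, of which 8 of 17 measured were past 2-fold higher in MKN45 and none lower.

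**Figure D4:**
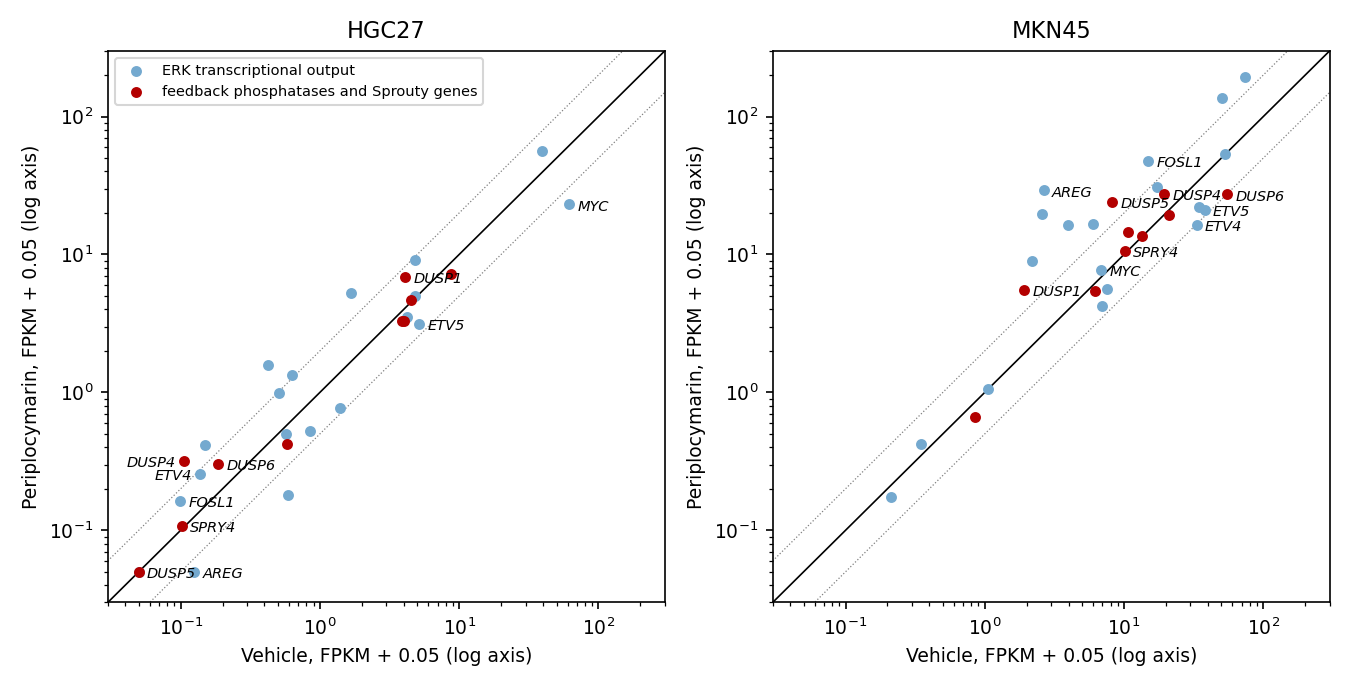
FPKM plus 0.05 in the treated library against the vehicle library, both on log axes, for the 10 feedback genes (red) and 19 ERK output genes (blue) in HGC27 and MKN45, with the line of equality solid and 2-fold lines dotted. In MKN45 DUSP6 and ETV4 lie close to the lower dotted line and DUSP1, DUSP5, FOSL1 and AREG above the upper one, while DUSP4, DUSP5, DUSP6, SPRY4 and ETV4 lie at the lower left in HGC27.

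The 10 messages were placed in GRCh38 with the GENCODE 29 annotation, in which all are protein coding. DUSP6 lies on chromosome 12 from 89347232 to 89353271 and DUSP1 on chromosome 5 from 172768090 to 172771195, both on the minus strand. DUSP5 lies on chromosome 10 from 110497838 to 110511544, plus strand. SPRY4 lies on chromosome 5 from 142310427 to 142326455, and SPRED2 on chromosome 2 from 65310851 to 65432637, both on the minus strand. Antisense genes overlap DUSP1, DUSP6 and SPRY4, at no more than 57 reads in any library, and a gene within an intron overlaps SPRED2, at no more than 2 reads. No other gene model overlaps DUSP4, DUSP5, DUSP7, DUSP10, SPRY2 or SPRED1.

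DUSP6 had the highest mean level of the 10. The 5 tested genes whose 4 log2(FPKM + 1) values, each centred on its own mean, lay nearest to those of DUSP6 were TMC5, LINC01123, SUCNR1, FOXQ1 and POF1B, at Euclidean distances of 0.27 to 0.34. All 5 were at or below 0.0638 FPKM in both HGC27 libraries and lower in treated than in vehicle MKN45. FOXQ1, a forkhead transcription factor, stood at 60.7 and 29.8 FPKM in vehicle and treated MKN45. With 4 libraries this is a description of likeness and no more.

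Mitochondrially encoded genes held 6.914% of recovered reads in vehicle and 3.395% in treated HGC27, and 11.12% and 5.122% in MKN45, so all other genes held a larger share of the reads in the treated libraries. With those genes left out, the MKN45 ratios were 2.74 for DUSP1, 2.77 for DUSP5 and 0.465 for DUSP6. Fewer cells with a message and less of it per cell cannot be told apart in these libraries.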

How the data were processed

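Bead-captured mRNA was sequenced in 4 libraries, per the labels' protocols, 1 per line and treatment, grouped by their titles. Per the submitters' processing notes, hg38, HISAT2 2.1.0 and fastp 2.0 were used, in no stated role or order. The strand setting, counter and annotation were not given in the sources used here. From the values, the authors deposited FPKM with a composition factor per library (1.20 and 0.948 in vehicle and treated HGC27, 1.01 and 0.863 in vehicle and treated MKN45). No header names the unit.

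Reads were recovered from the steps between low values: at a tolerance of 1e-06 reads, whole reads came from the GENCODE 29 length for 49.9% of 30457 genes. For the others the shortest length that gave whole reads was searched without regard to the annotated one. A multiple of it close to the annotated length was used in its place where there was one. Of 25904 genes above 0 in at least 2 libraries, 25902 came out whole. A free length fits many genes, and all 10 members used a searched one (for DUSP6, 3859 bases against 4632 annotated). Whether reads or fragments were counted is unknown.

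Symbols matched 62639 of 62710 IDs. Limma 3.58.1 (R 4.3.3, lmFit and eBayes with trend) was fitted to log2(FPKM + 1) with line as a block, for genes averaging 1 FPKM and 10 reads or more, with Benjamini-Hochberg adjustment and 0.05 as the threshold. It has 1 residual and 8.59 prior degrees of freedom. Each line gives a treated and a vehicle library, which makes the line the pair. Both fit and recovery were tested on simulated data. Named outside the members were genes of each list past the test, the 2 with the largest absolute fitted difference where fewer than 2 passed, and the 5 genes nearest to DUSP6. ETV4, ETV5, FOSL1, EGR1, PHLDA1 and MAP2K6 fall outside this rule and were chosen after their values were seen. RPS6KA2 was likewise named after its values were seen. Members and lists were chosen with earlier results of these data known. Alternatives were a pseudocount of 0.1, no filter, a floor of 10 FPKM, quantile normalization, library totals, mitochondrial genes left out, limma-voom, no block and robust moderation. Some marker values are not reported here.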

Additional observations from a re-analysis of the deposited data

Results flagged for a closer look

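The treated minus vehicle difference, on the log2(FPKM + 1) scale, had opposite signs in the 2 lines for DUSP6, SPRY2 and AREG, and the difference between lines was not tested, since 4 libraries leave no degrees of freedom for it. DUSP6 was at 0.14 in HGC27, from 17 and 23 reads, and at -0.98 in MKN45. SPRY2 was at -0.24 in HGC27 and at 0.0049 in MKN45, where its counting interval holds no difference. AREG was at -0.11 in HGC27, where its level was 0.0755 and 0 FPKM, and at 3.07 in MKN45.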

How the results depend on the processing

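None of the members tested passed under any of the 9 alternatives to the fit over both lines, in either direction, and the lowest adjusted p was 0.0549, for DUSP1 with mitochondrial genes left out (limma, range 0.0549 to 0.830 over its settings). With no replicate block, that is with the lines not paired, 0 genes passed in all, and with no low-value filter also 0. The fitted difference of SPRY4 turned to -0.073 with library totals alone and to -0.0053 with mitochondrial genes left out, and that of SPRED1 to -0.019 with library totals. Of the 99 other pathway genes 83 were tested, of which 3 rose and 0 fell, beside 3.49% and 3.29% of all genes tested. With a pseudocount of 0.1 it was 8 and 1, with a floor of 10 FPKM 9 rose, with mitochondrial genes left out 12 and 1, with robust moderation 8 rose, with limma-voom 13 and 3, with library totals 3 fell, and with no filter or no block 0 rose. Over all genes 432 rose and 407 fell (51.5% of calls upward), against 350 and 1109 with library totals (24.0%), 1049 and 199 at a floor of 10 FPKM (84.1%), 224 and 377 with quantile normalization (37.3%), 755 and 734 with the smaller pseudocount, 963 and 1179 without mitochondrial genes, 756 and 607 with robust moderation, and 856 and 669 with limma-voom. The genes tested numbered 12374, but 4454 at the floor of 10 FPKM, 12459 with library totals and 12543 without mitochondrial genes. With no filter they numbered 32364. Library totals moved the median of all genes by -0.22. Within MKN45, the 2 members past 2-fold higher became 1 at a floor of 10 FPKM (DUSP1 lies below it) and 1 with library totals (DUSP1 at 0.99). The count past 2-fold lower went from 0 to 1, DUSP6, with a pseudocount of 0.1 (-1.01), library totals (-1.20), mitochondrial genes left out (-1.08) and quantile normalization (-1.34). In vehicle, 7 members were lower in HGC27 past 2-fold, and 2 at a floor of 10 FPKM, where fewer are measured, and 1 was higher, DUSP1, with a pseudocount of 0.1 and with library totals, against 0. The causes of these moves were not tested beyond those named. Depth limits DUSP4, DUSP5, DUSP6 and SPRY4 in HGC27, at 46 reads or fewer. Their lack of a call over both lines therefore says little under the alternatives too.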
